A study of Mus musculus with 5 samples.

Results

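The genes described here are 36 genes of heart muscle, read in messenger RNA from macrophages sorted out of the infarcted mouse heart. They were taken by symbol from the deposited table of 21289 genes, and all 36 were found in it. By role they comprise 7 genes of the thick filament, 5 of the thin filament, 10 of the Z disc, M band and titin, 7 of oxygen storage and energy supply, 4 of calcium handling, 2 natriuretic peptide genes and the elongation factor gene Eef1a2. Every library came from wild-type male C57BL/6JGpt mice with myocardial infarction, and the cells were gated as CD45+CD64+ on day 7 after it. There were 2 untreated samples and 3 samples from mice given curcumol, a sesquiterpene, at 30 mg/kg by gavage each day for 7 days. The labels name no vehicle for the untreated mice and do not say whether a sample was 1 animal or a pool, and the p-values can speak only for how far these samples vary, which may be technical.

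In cardiomyocytes, myosin thick filaments slide along actin thin filaments between Z discs, and titin spans the unit from the Z disc to the M band. Calcium released through the ryanodine receptor binds troponin C and starts contraction, and the pump SERCA2 returns it to the sarcoplasmic reticulum. These proteins are made in such amounts that their transcripts dominate the RNA of heart muscle, while macrophages are not known to build sarcomeres. Most of the 36 genes are therefore restricted to muscle, but Atp2a2, Tpm1 and Fabp3 are also expressed in other cells.

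Totals were 39768705 to 43315822 counts per library. The untreated libraries held counts for 12243 and 12915 genes and the curcumol libraries for 17078 to 18501, and this difference in breadth touches every result below. The gate genes were present in all libraries: Ptprc, which encodes CD45, at 244 to 489 CPM (counts scaled to a library total of 1000000) and Fcgr1, which encodes CD64, at 267 to 349.7 CPM. The labelled cell type was carried by its markers, with 10 of 10 macrophage genes counted in each library. In bulk RNA such as this, fewer cells of a type and less RNA per cell cannot be told apart, and the source of the muscle transcripts was not tested.

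Muscle transcripts were a trace of the RNA in every library, and a larger one in each curcumol library than in either untreated one. The 36 genes together made up 0.0184% and 0.0274% of counts without curcumol and 0.0322%, 0.0387% and 0.0371% with it. In summed CPM this was 229 ± 63.1 (SD, n = 2) without and 359.8 ± 33.9 (n = 3) with curcumol, and the groups did not overlap. Tpm1 and Atp2a2 alone held 69.0% and 56.0% of these counts without curcumol and 34.5% to 42.7% with it. Without Atp2a2, Tpm1 and Fabp3 the remaining 33 genes summed to 52.8 and 103 CPM without curcumol and to 175, 222 and 233 CPM with it. The ratio of means was 2.70, against 1.57 over all 36. Tpm1 and Fabp3 were among the 4 tested members with a negative log2 fold change, so leaving them out raised the ratio. In ratio, the higher untreated library was further from the lower untreated library than from curcumol replicate 1. No p is given for these sums, because the members were chosen with results of these data known.

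**Figure D1:**
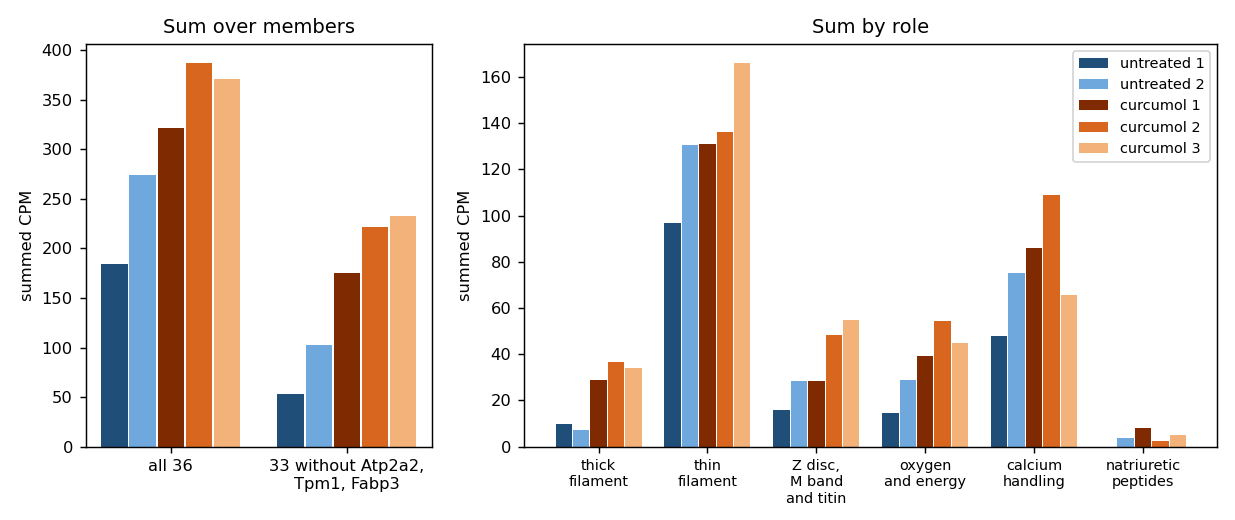
Summed CPM of the muscle genes in each library, over all 36 and over the 33 without Atp2a2, Tpm1 and Fabp3 (left) and by role (right, Eef1a2 not drawn). Each bar is 1 library, blue for the 2 untreated and brown to orange for the 3 curcumol libraries. The thick filament sums were 9.70 and 7.06 CPM untreated and 28.9 to 36.6 CPM with curcumol, while the thin filament sums, led by Tpm1, were 96.6 and 130.5 against 131 to 166 CPM.

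No muscle gene passed the test between the groups. Of the 36 genes 32 had enough counts for edgeR's quasi-likelihood test, and at an adjusted p of 0.05 none was higher and none was lower with curcumol, where 0.0689% and 0.138% of the 14508 tested genes were. The smallest adjusted p among them was 0.0619. At an unadjusted p under 0.05, 9 of the 32 were higher (28.1%, against 18.1% of all tested genes) and 1 was lower (3.12%, against 6.51%). All curcumol libraries lay above both untreated libraries for 21 of the 32 (65.6%, against 36.6% of all tested genes). They lay below both for 1, Tpm1, against 9.31% of all tested genes. Ttn, Actn2, Ldb3, Ckmt2 and Sln were among both the 9 and the 21. These 5 had no untreated count and entered the test only through the curcumol libraries, so their direction was fixed beforehand. The shares over all tested genes include genes of that kind too. The median log2 fold change of the 32, curcumol minus untreated, was 1.31, beside 0.15 over all tested genes. With total counts in place of TMM scaling the latter moved to 0.34. Over the 27 members with an untreated count the median was 1.07. The 0.15 is not matched for level. Over all genes the median log2 ratio of means was 0.71 at 1 to 3 CPM with curcumol. It was 0.56 at 3 to 10 CPM and 0.13 from 30 CPM. These ratios are of CPM with a small constant added, unlike the edgeR values.

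The calls differed with the untreated library that entered the fit and with the tool. Without untreated replicate 1, 13 of 33 tested members were higher (39.4%, against 14.8% of genes) and 1, Fabp3, was lower (against 3.96%). Without untreated replicate 2, 17 of 33 were higher (51.5%, against 18.1%). Both fits assume that the lone untreated library varies as the curcumol libraries do. DESeq2 on all 5 libraries called 9 members higher (28.1%, against 11.8% of genes) and Tpm1 lower (against 4.74%). With limma-voom 5 were higher (15.6%, against 9.72%). Ttn, Actn2, Ldb3 and Ckmt2, without an untreated count, were among the members that both tools called higher. Without a filter on low counts edgeR called Myl3 and Ckmt2 (5.56% of 36, against 1.52%). With a CPM of at least 1 in 2 samples it called Ckmt2 (3.33% of 30, against 0.467%).

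**Figure D2:**
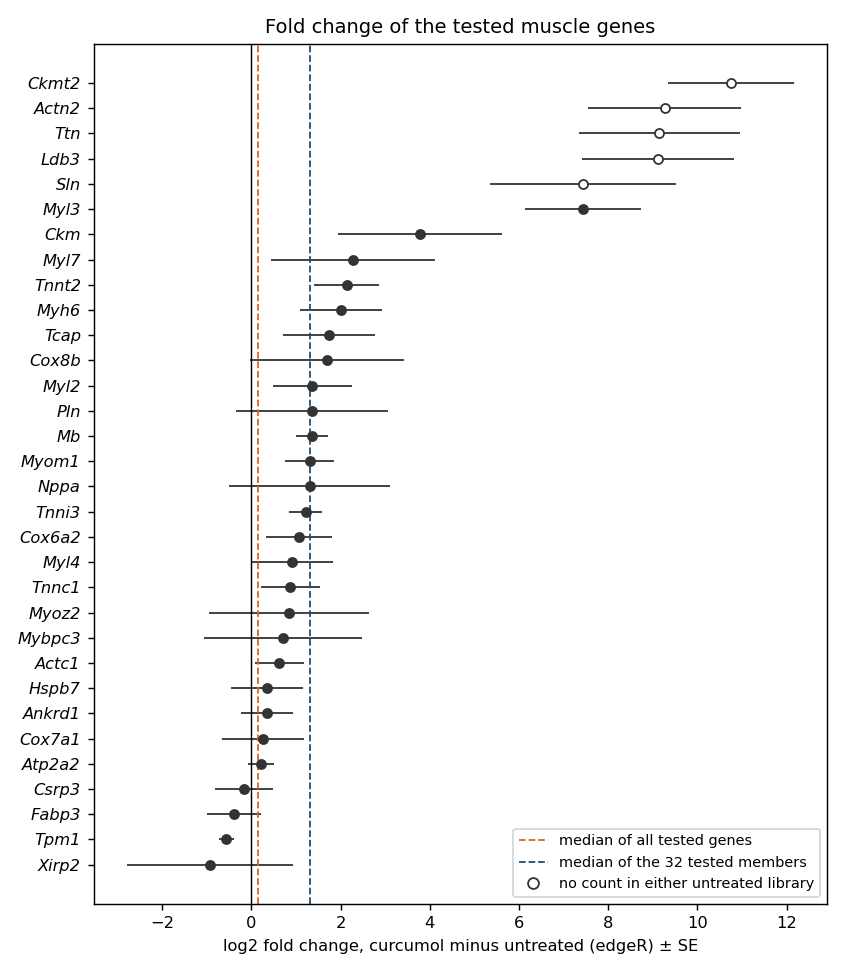
Log2 fold change, curcumol minus untreated, of the 32 tested muscle genes from edgeR, with its SE. Open circles mark the 5 genes without a count in either untreated library, whose fitted value depends on the prior count and is no bound; the dashed lines mark the median of all tested genes (0.15) and of the 32 members (1.31).

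In the thick filament, the light chain Myl3 stood out between the groups. Myl3, the ventricular essential light chain (NCBI gene 17897), had 4 and 0 counts untreated and 392, 373 and 427 counts with curcumol. Its log2 fold change was 7.43 ± 1.30 (edgeR adjusted p = 0.0644), and the curcumol libraries differed among themselves by at most 1.18-fold. Myl2, the ventricular regulatory light chain and its partner on the myosin head, was at 0.670 and 4.80 CPM untreated and at 6.70, 7.88 and 9.30 CPM with curcumol (1.37 ± 0.89, adjusted p = 0.412). The 2 ventricular light chains were at similar levels per length with curcumol, 8.95 CPM per kilobase of transcript for Myl2 and 10.4 for Myl3, but at 3.08 and 0.0493 without it.

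Myh6, the main myosin heavy chain of the adult mouse heart, had 86 and 23 counts untreated and 155, 391 and 178 with curcumol (log2 fold change 2.01 ± 0.91, adjusted p = 0.237). Myh7, the slow heavy chain that rises in the stressed rodent heart, had no count in 3 of the 5 libraries and 2 and 5 in the others, which is too few to test, and the coding sequences of Myh6 and Myh7 are so alike that some reads may not have been assigned. Mybpc3, the myosin-binding protein C of the heart, was at 6.30 CPM in untreated replicate 1 and had no count in replicate 2, and was at 2.85, 8.29 and 6.89 CPM with curcumol. Myl4 and Myl7, the atrial light chains, were lower, at 0.646 and 1.10 CPM and at 0 and 0.600 CPM untreated, and at 1.17 to 2.82 CPM and 0.608 to 3.17 CPM with curcumol. For 5 of the 7 thick filament genes the curcumol libraries all lay above the untreated ones, against 36.6% of all tested genes. For Myl4 and Myl7 the margin was narrow, 1.10 against 1.17 CPM and 0.600 against 0.608 CPM, in CPM without TMM scaling. The ratio of the summed means of the thick filament genes, 3.96, was the largest among the role groups with untreated counts.

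**Figure D3:**
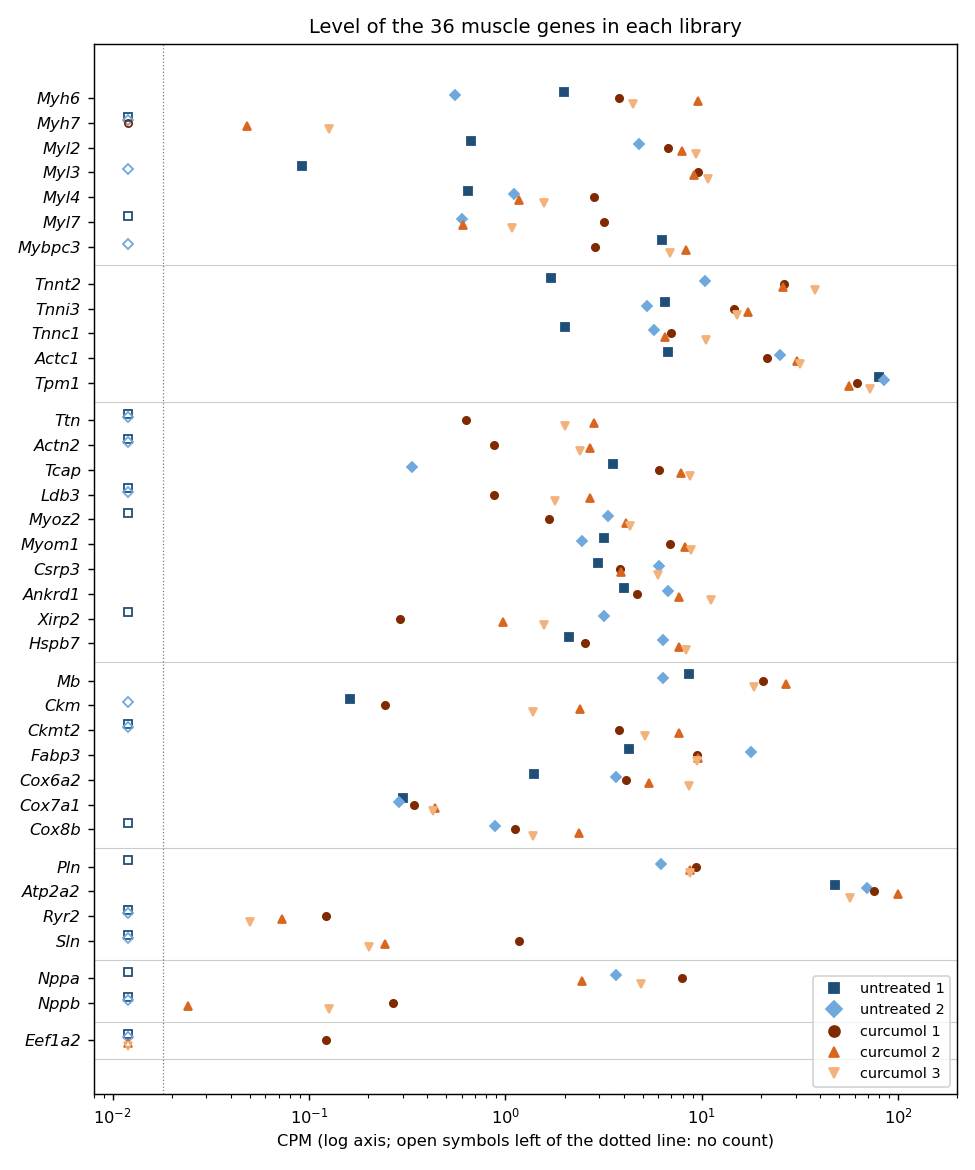
CPM of each of the 36 muscle genes in every library on a log axis, ordered by role from thick filament (top) to Eef1a2 (bottom). Each symbol is 1 library, and open symbols left of the dotted line mark libraries without a count; 15 and 12 members had none in the untreated libraries and 1 in each curcumol library.

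In the thin filament the cardiac troponins were higher in all curcumol libraries and the tropomyosin gene was lower. Tnnt2, the troponin that anchors the complex to tropomyosin, was at 1.71 and 10.4 CPM untreated and at 26.2, 26.0 and 37.7 CPM with curcumol (log2 fold change 2.14 ± 0.73, adjusted p = 0.133). Tnni3, the inhibitory troponin found only in heart, was at 6.51 and 5.26 CPM untreated and at 14.5, 17.2 and 15.1 CPM with curcumol (1.22 ± 0.37, adjusted p = 0.104). The groups were apart here with even libraries in each, whereas the untreated libraries were far apart for Tnnt2. Tnnc1, the calcium sensor of heart and slow muscle, was at 2.01 and 5.71 CPM untreated and 6.47 to 10.5 CPM with curcumol.

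Actc1, cardiac alpha-actin, overlapped between the groups, at 6.74 and 24.9 CPM untreated and 21.5, 30.4 and 31.4 CPM with curcumol, and its sign turned without untreated replicate 1 (log2 fold change -0.01). Its coding sequence is close to that of the abundant Actb, so reads of actins cannot all be assigned with certainty. Tpm1 was the member with the most counts, 3449 and 3507 untreated and 2532, 2306 and 2840 with curcumol. It was the only member whose curcumol libraries all lay below the untreated ones (log2 fold change -0.56 ± 0.17, adjusted p = 0.105).

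Among genes of the Z disc and titin, 3 of 10 were counted only in curcumol libraries. These 3 averaged 1 to 3 CPM with curcumol, a level at which 23.5% of 1632 genes were at 0 in both untreated libraries. Ttn, the giant elastic protein of the sarcomere, had 0 and 0 counts untreated and 26, 116 and 80 with curcumol. Actn2, the alpha-actinin that crosslinks actin at the Z disc, had 36, 110 and 95 counts with curcumol and none without. Ldb3, a Z disc scaffold that binds alpha-actinin, likewise had 36, 110 and 71 counts and none untreated. Against a floor of 3 counts per untreated library these means were at least 25.8-fold, 28.0-fold and 25.2-fold higher, a bound that covers counting error only. Adjusted p was 0.0667 for Ttn and 0.0659 for Actn2 and Ldb3.

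The other Z disc and M band genes were counted without curcumol as well. Myom1, the myomesin that crosslinks thick filaments at the M band, was at 3.16 and 2.45 CPM untreated and 6.91, 8.22 and 8.78 CPM with curcumol (log2 fold change 1.31 ± 0.55, adjusted p = 0.207). Tcap, the titin cap, was at 3.53 and 0.336 CPM untreated and 6.04 to 8.68 CPM with curcumol. Ankrd1, a titin-associated stress protein, overlapped at 3.99 and 6.74 against 4.70, 7.66 and 11.1 CPM, as did the small heat shock protein gene Hspb7 at 2.10 and 6.36 against 2.53, 7.61 and 8.32 CPM. Csrp3, the muscle LIM protein, was at 4.50 ± 2.19 and 4.55 ± 1.22 CPM (log2 fold change -0.17 ± 0.65, adjusted p = 0.914), and its sign turned with total counts (0.02). Myoz2, a calcineurin-binding Z disc protein, had 0 and 138 counts untreated and 68, 168 and 172 with curcumol. Xirp2, an actin-binding protein of intercalated discs, had 0 and 133 counts untreated and only 12, 40 and 63 with curcumol.

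For 6 of the 7 oxygen and energy genes all curcumol libraries lay above the untreated ones, against 36.6% of all tested genes. Of the 6, Cox7a1 had a log2 fold change of only 0.26, and Ckmt2 was tested only through its curcumol counts. Mb, the oxygen store myoglobin, was at 8.59 and 6.36 CPM untreated and 20.4, 26.8 and 18.4 CPM with curcumol (log2 fold change 1.36 ± 0.35, adjusted p = 0.0777). Ckmt2, the sarcomeric mitochondrial creatine kinase, had the smallest p of all members: no count untreated and 156, 315 and 204 counts with curcumol, at least 78.3-fold higher against the floor (adjusted p = 0.0619). Ckm, the cytosolic creatine kinase of muscle, had 7 and 0 counts untreated and 10, 99 and 55 with curcumol, with curcumol replicate 1 close to the untreated libraries. Fabp3, the fatty acid carrier of heart, was at 4.27 and 17.7 CPM untreated, on either side of the curcumol libraries at 9.40, 9.58 and 9.43 CPM.

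The muscle isoforms of 3 subunits of cytochrome c oxidase differed widely in level. Cox6a2 was at 1.39 and 3.65 CPM untreated and 4.09, 5.40 and 8.55 CPM with curcumol. Cox8b had 0 and 37 counts untreated and 46, 97 and 55 with curcumol. Cox7a1 had 13 and 12 counts untreated and 14, 18 and 17 with curcumol (log2 fold change 0.26 ± 0.92, adjusted p = 0.908), a low level in both groups.

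In calcium handling, Atp2a2, which encodes SERCA2 in many cell types, overlapped at 47.7 and 68.9 CPM untreated against 75.6, 99.7 and 56.5 CPM with curcumol (log2 fold change 0.22 ± 0.29, adjusted p = 0.713). Its micropeptide inhibitor Pln, phospholamban, had 0 and 258 counts untreated and 382, 358 and 347 with curcumol, among the most even of all members across the curcumol libraries. Sln, the related inhibitor sarcolipin of the atria, had no count untreated and 48, 10 and 8 with curcumol. Ryr2, the ryanodine receptor of heart, had no count untreated and 5, 3 and 2 with curcumol, which is close to the floor of 3 counts. Of the natriuretic peptides, which the stretched heart secretes, Nppa had 0 and 153 counts untreated and 324, 101 and 195 with curcumol, and Nppb had none untreated and 11, 1 and 5 with curcumol. Eef1a2, the elongation factor of muscle and neurons, had 5 counts in curcumol replicate 1 and none elsewhere.

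The muscle transcripts were patchy in the untreated libraries. Of the 36 genes 18 were counted in both untreated libraries, 9 in 1 of them and 9 in neither, while 34 were counted in every curcumol library. Of 25 members with 10 counts or more in an untreated library, 7 had none in the other (28.0%, against 16.6% of all such genes). Mybpc3 had 273 counts in untreated replicate 1 and none in replicate 2, and Pln had none in replicate 1 and 258 in replicate 2, although the totals of the libraries differed by little. Of 33 members with 10 counts or more in a curcumol library none was at 0 in another, against 6.97% of all such genes.

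The members at 0 in both untreated libraries were read against genes of like level. Of 32 members with 3 counts or more in each curcumol library, 5 were at 0 in both untreated libraries (15.6%, against 11.2% of 14261 genes). At a mean of 1 to 3 CPM with curcumol this held for 3 of 7 members and 23.5% of 1632 genes, and at 3 to 10 CPM for 1 of 16 members, Ckmt2, and 5.48% of 2337 genes. Zeros among low transcripts of the untreated libraries were thus found across the whole table, and their part in the result for muscle genes was not tested.

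The composition of the muscle signal was also less alike between the untreated libraries. Over the 36 genes, log2(CPM + 1) correlated with a Pearson's r of 0.773 for the untreated pair, 0.764 to 0.822 between untreated and curcumol libraries and 0.913 to 0.970 between curcumol libraries. Over the 33 genes without Atp2a2, Tpm1 and Fabp3 it was 0.565 between the untreated and 0.872 to 0.964 between the curcumol libraries. The same measure over all tested genes was 0.927 and 0.976 to 0.980. These values describe libraries over genes, which are not independent replicates.

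Per length of transcript the order of the members was not that of a list of sarcomere parts. With curcumol the highest were Tnnt2 at 25.0, Tpm1 at 21.8, Mb at 19.8 and Actc1 at 18.8 CPM per kilobase, followed by Atp2a2 at 17.2 and Tnni3 at 17.1, neighbours that do not differ beyond the spread of the libraries. The genes with long transcripts were far lower, Myh6 at 0.968, Ttn at 0.0171 and Ryr2 at 0.00486 CPM per kilobase. Spearman's rho between level per length and length was -0.464 over the 36 genes, with length in both quantities. In the mean without curcumol Tpm1 at 28.3, Fabp3 at 13.4 and Atp2a2 at 13.0 led, the genes that other cells also express. Actc1 followed at 10.8. Fabp3 was at 4.27 and 17.7 CPM and Actc1 at 6.74 and 24.9 CPM in the untreated libraries. The order behind Tpm1 thus does not hold within each library.

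Several muscle isoforms were set against the isoform that non-muscle cells use. Actc1 made up 0.0521% and 0.228% of the counts of Actc1 and Actb without curcumol and 0.184% to 0.346% with it. Myh6 made up 5.32% (exact 95% binomial interval 4.28% to 6.53%) and 1.78% (1.13% to 2.65%) of the counts of Myh6 and the non-muscle heavy chain Myh9 without curcumol, and up to 12.4% (11.2% to 13.6%) with it, where all libraries lay above both untreated ones. Myl3 made up 0.0160% and 0% of the counts of Myl3 and Myl6 without curcumol and 1.62% to 1.74% with it. Actn2 was 0% and 0% of the counts of Actn2 and Actn1, with upper limits of 2.41% and 1.43%, and 19.4% to 34.6% with curcumol. These intervals cover counting error only.

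The non-muscle isoforms themselves did not pass the test. Actb was at 11931 ± 1424 CPM untreated and 10406 ± 1288 CPM with curcumol and Myl6 at 577 ± 1.31 and 569 ± 72.7 CPM (edgeR adjusted p = 0.295 and 0.501). Cox7a1 made up 0.350% and 0.290% of its pair with Cox7a2 untreated and 0.358% to 0.462% with curcumol, so the groups did not overlap, but the binomial intervals of all 5 libraries did. The share of Tpm1 in its pair with Tpm3 overlapped between the groups, at 8.42% and 10.4% against 6.89% to 10.2%. For Atp2a2 the direction was the other way: the leukocyte pump Atp2a3 had 0 and 130 counts untreated and 428, 1482 and 702 with curcumol, so that Atp2a2 made up 100% and 95.7% of the pair untreated and 73.4% to 87.9% with curcumol.

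Other cardiomyocyte genes, from lists written with earlier results of these data known, were more often at 0 without curcumol, but their summed level overlapped between the groups. Of 82 such genes 78 were in the table, and 22 or 24 of them had a count in an untreated library against 65 to 70 in a curcumol library. They summed to 517 and 541 CPM untreated and to 468, 518 and 569 CPM with curcumol. Adssl1 held the largest part of these sums, at 211 and 247 CPM untreated and 152, 135 and 172 CPM with curcumol. The overlap of the sum thus says little about the less abundant genes of these lists. Of the 51 tested none passed in edgeR at an adjusted p of 0.05 in either direction. At an unadjusted p under 0.05, 23 were higher (against 18.1% of all tested genes) and 2 lower (against 6.51%). The median log2 fold change of the 51 was 2.53, beside 0.15 over all tested genes. Of the 23, all but Perm1 had no untreated count and entered the test only through the curcumol libraries. Their direction was thus fixed beforehand and their fitted values depend on the prior count. Neither the 23 nor the 2.53 therefore measures the size of a difference. Of 47 with 3 counts or more in each curcumol library 22 were at 0 in both untreated libraries (46.8%, beside the 11.2% of all such genes). These 2 shares are not matched for level. The calcium store and membrane genes were the emptiest, with 14 of 17 at 0 in both untreated libraries: Srl, sarcalumenin of the sarcoplasmic reticulum, had 65, 97 and 56 counts with curcumol only, and Casq2, the calcium-binding calsequestrin of heart, 47, 35 and 39. The cardiac transcription factor genes Gata4 (25, 14 and 36 counts) and Tbx20 (14, 15 and 42 counts) were likewise counted only with curcumol. Casq2, Gata4 and Tbx20 averaged 0.992, 0.618 and 0.587 CPM with curcumol. Under 1 CPM, down to the floor of 3 counts, 60.5% of 4703 genes were at 0 in both untreated libraries. Srl averaged 1.78 CPM, and at 1 to 3 CPM that share was 23.5% of 1632 genes. The most abundant genes of these lists did not pass the test in either direction. Adssl1, a purine synthesis enzyme, was at 229 ± 25.5 CPM untreated and 153 ± 18.8 CPM with curcumol. Its log2 fold change was -0.77 ± 0.17 (edgeR adjusted p = 0.0671), and its curcumol libraries all lay below the untreated ones. S100a1, a calcium-binding protein of heart muscle, was at 75.7 ± 3.36 and 92.4 ± 20.3 CPM (0.10 ± 0.22, adjusted p = 0.846). Next came the Z disc adaptor Pdlim5 at 45.3 ± 13.8 and 57.1 ± 21.8 CPM (0.15 ± 0.34, adjusted p = 0.857). The small GTPase gene Rrad was at 60.8 ± 30.1 and 37.1 ± 4.32 CPM (-0.90 ± 0.34, adjusted p = 0.161). Adssl1 and Rrad were the 2 genes lower at an unadjusted p under 0.05.

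Markers of several other cells of the infarcted heart were also at higher summed levels in the curcumol libraries. The summed level of 12 fibroblast genes was 31.1 to 37.0 CPM untreated and 142 to 406 CPM with curcumol, and 7 of them had a count in each untreated library and 12 in each curcumol library. Dcn and Lum, which encode matrix proteoglycans, passed the test (adjusted p = 0.0464 each). The summed level of 12 endothelial genes was 4.25 and 4.78 CPM untreated and 36.7 to 57.9 CPM with curcumol, and 9 of 12 were at 0 in each untreated library. The 10 mural cell genes overlapped in their sum, at 31.2 and 14.3 CPM untreated against 21.5, 34.7 and 38.6 CPM with curcumol. Of them 8 and 9 were at 0 untreated, and Rgs5, a pericyte marker, passed (adjusted p = 0.0464), while Acta2, smooth muscle actin and the most abundant of them, had a log2 fold change of -0.58 ± 0.46 (adjusted p = 0.510).

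The summed level of 10 neutrophil genes was 361 and 401 CPM untreated and 1727 to 3710.0 CPM with curcumol, and Camp and Ngp, neutrophil granule genes, passed (adjusted p = 0.0156 and 0.0147). The 7 B cell genes in the table summed to 34.3 and 49.9 CPM untreated and 78.5 to 117 CPM with curcumol, and 10 T and NK cell genes overlapped at 81.9 and 90.2 against 69.5 to 162 CPM. The 10 macrophage genes summed to 37511 and 38629 CPM untreated and 38333 to 42259 CPM with curcumol. Lyz2 led this sum, at 22769 and 24446 CPM untreated and 21973 to 24599 CPM with curcumol, so the sum says little about the others. None of the 10 passed. At an unadjusted p under 0.05 in edgeR 2, Itgam and Mertk, were higher (against 18.1% of all tested genes). In the other direction 1, Cd68, was lower (against 6.51%). Erythroid and platelet genes went the other way, at 63.2 and 131 CPM untreated and 44.9 to 55.1 CPM with curcumol. The 13 transcripts encoded by mitochondrial DNA, which are abundant in heart muscle, summed to 4779 and 8055 CPM untreated and 11003 to 14724 CPM with curcumol, and none passed. The part of each of these in the result for muscle genes was not tested.

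**Figure D4:**
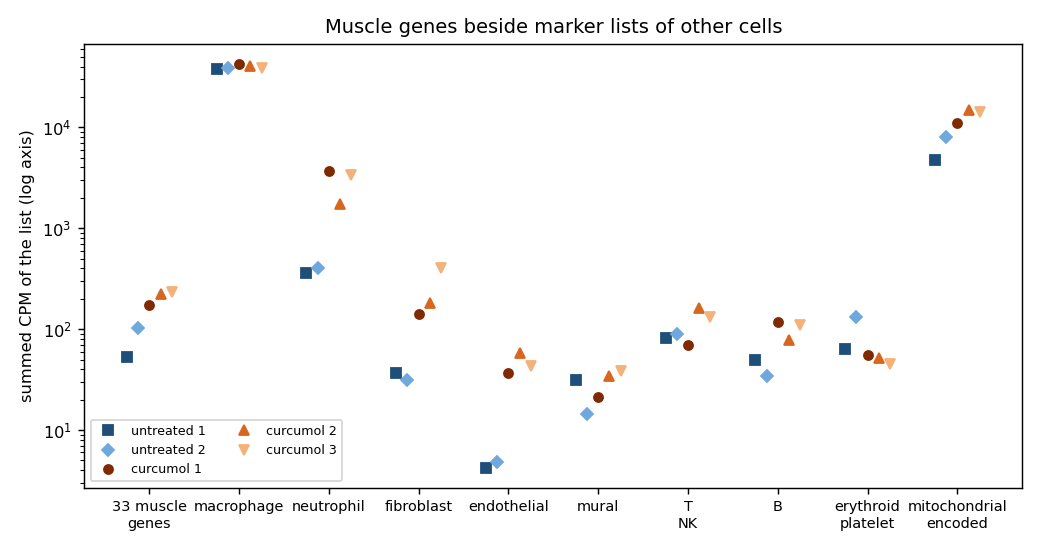
Summed CPM of the 33 muscle genes (without Atp2a2, Tpm1 and Fabp3) beside marker lists of other cells and the mitochondrial transcripts, on a log axis; each symbol is 1 library. The macrophage sums, led by Lyz2, lie close together. The muscle, neutrophil, fibroblast, endothelial and mitochondrial sums lie higher in the 3 curcumol libraries than in the 2 untreated ones.

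Some of the members' promoters held motifs of muscle transcription factors, which their choice did not use, and 16 of 32 held a CArG box, a MEF2 site or an M-CAT element. The share of all promoters with any of these motifs is not given here, so only the single motifs can be read against a share. RefSeq windows of GRCm38.p6 were given for 32 of the 36 genes, without Tcap, Cox6a2, Atp2a2 and Sln, and the 250 bases before the first listed start of each gene were searched. The CArG box, which serum response factor binds, was found in 5 of 32 member promoters (15.6%) and in 1.40% of 27025 promoters. A MEF2 site was found in 4 (12.5%, against 3.01%), and the M-CAT element CATTCC, which TEAD factors bind, on either strand in 9 (28.1%, against 12.6%). The GATA core GATAA on either strand was in 12 (37.5%, against 23.0%), the E-box CANNTG in 28 (87.5%, against 66.0%) and TATAAA on the gene's strand in 3 (9.38%, against 8.12%). None of these shares was tested, and a match is not a bound site.

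The 200 bases before the start are printed, 5′ to 3′ on the gene's strand, for the 5 members with a CArG box and for Myoz2 with a MEF2 site close to its start, because they show the motifs in place. Capitals mark CArG boxes, MEF2 sites and M-CAT elements (CATTCC or its complement GGAATG). The windows are Myl3 at chr9:110763478-110763677 (plus strand), Actc1 at chr2:114052876-114053075 (minus), Myl7 at chr11:5898783-5898982 (minus), Ldb3 at chr14:34588682-34588881 (minus), Myom1 at chr17:71019357-71019556 (plus) and Myoz2 at chr3:123034988-123035187 (minus).
Myl3: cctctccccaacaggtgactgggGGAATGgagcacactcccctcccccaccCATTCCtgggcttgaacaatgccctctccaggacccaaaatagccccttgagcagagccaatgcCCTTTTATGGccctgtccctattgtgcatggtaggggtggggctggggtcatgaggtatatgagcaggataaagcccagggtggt
Actc1: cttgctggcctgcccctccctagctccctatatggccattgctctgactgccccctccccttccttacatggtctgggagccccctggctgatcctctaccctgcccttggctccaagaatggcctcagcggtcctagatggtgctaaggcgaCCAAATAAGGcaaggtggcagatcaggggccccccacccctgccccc
Myl7: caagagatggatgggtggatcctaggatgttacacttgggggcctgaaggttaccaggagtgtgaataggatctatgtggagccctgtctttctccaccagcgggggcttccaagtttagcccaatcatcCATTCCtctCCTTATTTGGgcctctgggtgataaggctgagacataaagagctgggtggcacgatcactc
Ldb3: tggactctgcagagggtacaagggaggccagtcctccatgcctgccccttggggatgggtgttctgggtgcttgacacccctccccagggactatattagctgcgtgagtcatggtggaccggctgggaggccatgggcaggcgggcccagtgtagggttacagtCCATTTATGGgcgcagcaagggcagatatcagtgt
Myom1: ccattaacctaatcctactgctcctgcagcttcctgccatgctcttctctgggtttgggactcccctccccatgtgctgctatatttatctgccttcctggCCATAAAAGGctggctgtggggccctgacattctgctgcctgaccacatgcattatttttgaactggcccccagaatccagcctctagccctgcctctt
Myoz2: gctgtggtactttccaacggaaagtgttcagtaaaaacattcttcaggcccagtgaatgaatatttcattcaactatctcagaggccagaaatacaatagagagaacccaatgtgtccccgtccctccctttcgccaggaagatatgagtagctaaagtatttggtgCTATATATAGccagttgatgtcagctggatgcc
The CArG box began 85 bases before the start in Myl3, 47 in Actc1, 61 in Myl7, 35 in Ldb3 and 99 in Myom1, and the MEF2 site began 33 bases before it in Myoz2. In Myl7 an M-CAT element stood directly upstream of the CArG box, beginning 70 bases before the start, and in Myl3 M-CAT elements began 177 and 149 bases before it. The genes with a CArG box did not share a pattern of counts: Ldb3 was absent from both untreated libraries and Myl3 nearly so, Myl7 was absent from 1, and Actc1 and Myom1 were counted in both.

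**Figure D5:**
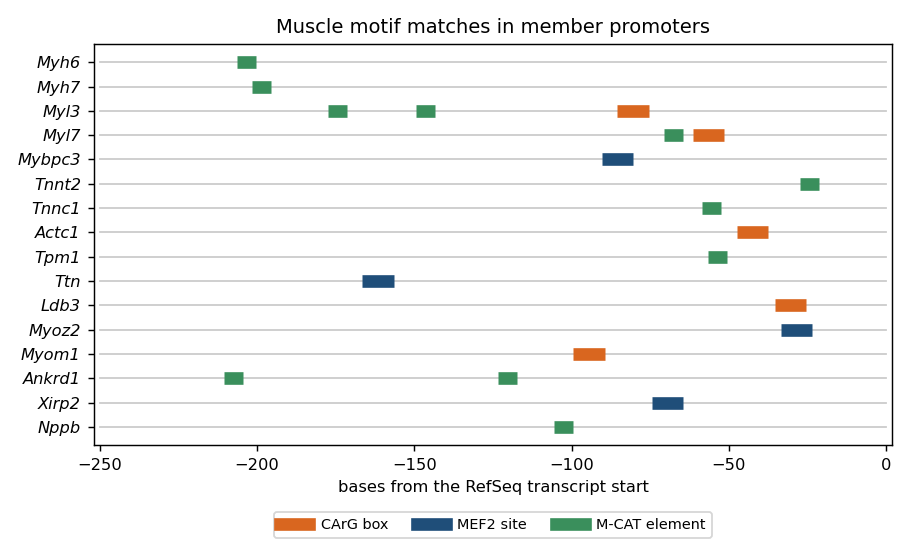
Position of CArG boxes (orange), MEF2 sites (blue) and M-CAT elements (green) in the 250 bases before the RefSeq start of the 16 member promoters that hold any of them. Each line is 1 promoter; 5 hold a CArG box, 4 a MEF2 site and 9 an M-CAT element.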

How the data were processed

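The authors deposited raw gene counts, which are whole numbers. The submitters' processing notes name fastp, HISAT2, HTSeq and Bowtie2, with versions, build and annotation not given in the sources used here. The library kit is named in 2 ways, so strandedness is not settled. Columns were tied to samples by title.

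CPM are counts scaled to a library total of 1000000. The groups were compared with edgeR 4.0.16 (R 4.3.3). Genes passed filterByExpr at a minimum count of 10, libraries were scaled by TMM, and the quasi-likelihood model held only the group, which left 3 residual degrees of freedom. Tests were two-sided, with Benjamini-Hochberg adjustment over all tested genes and a threshold of 0.05. The SE is the log2 fold change over the root of F. The script was tested on simulated data. Alternatives were DESeq2 1.42.0, limma-voom (limma 3.58.1), RLE factors, total counts, other filters, abundant genes only, a replicate block and leaving out each library. A floor of 3 counts was 0.0693 to 0.0754 CPM.

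Transcript lengths are those of the longest coding transcript in GENCODE M21, by symbol. NCBI gene numbers of all 36 members matched RefSeq of GRCm38.p6. Members, lists, isoform pairs and motifs were chosen with earlier results of these data known. Named genes are the members, whatever their values, counterparts in isoform pairs, and, of each list, up to 4 of the most abundant and up to 4 of the smallest p past the threshold. Srl, Casq2, Gata4 and Tbx20 are named partly outside that rule, after their values were seen, as are Camp, Ngp and the gate genes. The same holds for Perm1, Mylpf, Cacna1s, Tnnt3, Myl1, Itgam and Mertk. The planned permutation p of the summed level is not given, because the members were chosen with results known.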

Additional observations from a re-analysis of the deposited data

How the results depend on the processing

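The number of genes past the threshold, 30, was 10 with total counts, 416 without a filter, 98 with a CPM of at least 1, 179 among abundant genes, 1661 with limma-voom, 2397 with DESeq2, and 0 to 3531 when 1 library was left out: 2950 and 3531 without untreated replicate 1 and 2, and 1, 0 (2383 at an unadjusted p under 0.05) and 19 without curcumol replicate 1, 2 and 3. No member was higher past the threshold in edgeR, against 2 without a filter, 1 with a CPM of at least 1, 5 with limma-voom, 9 with DESeq2 and 0 to 17 with 1 library left out; 1 was lower with DESeq2 and 0 to 1 with 1 library left out. The members' median log2 fold change of 1.31 was 2.06 with limma-voom, 2.08 with the replicate block, -0.08 among abundant genes, where only 2 members were tested, and 0.70 to 1.92 with 1 library left out, lowest without untreated replicate 1. The log2 ratio of summed levels, 0.67, was 1.07 without Tpm1, 1.50 without Atp2a2, Tpm1 and Fabp3, and 0.39 to 0.96 with 1 library left out. Of 32 tested members 7 changed sign under an alternative. Without untreated replicate 1 and 2 their log2 fold changes were 10.89 and -0.27 for Mybpc3, -0.01 and 1.85 for Actc1, -0.16 and 10.06 for Myoz2, -0.58 and 0.43 for Csrp3, -1.93 and 8.24 for Xirp2, -0.22 and 1.35 for Hspb7 and -1.07 and 0.96 for Fabp3. Csrp3 also turned with total counts (0.02), and Xirp2 with limma-voom (1.84) and the replicate block (1.27). The replicate block, on the numbers 1 and 2 that both groups share, called no member. Deviations of same-numbered libraries from their group means correlated with r of 0.0245 and -0.0268 over genes. The deviations of 2 untreated libraries mirror each other, so these values cannot show whether libraries were paired. The labels state no pairing. The cause of these differences was not tested. Members near 3 counts cannot be told from 0 at this depth.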

Other observations

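Within the curcumol group, genes typical of the atria and the other muscle genes were highest in different libraries. Of the 32 tested members 5 were highest in curcumol replicate 1, and these were Myl4, Myl7, Sln, Nppa and Pln, while 21 were lowest there. Myl4, Myl7, sarcolipin (Sln) and atrial natriuretic peptide (Nppa) are known for their expression in atrial muscle. Their counts summed to 618, 184 and 309 in curcumol replicates 1, 2 and 3. Of these Nppa, which the stretched heart secretes, gave 324, 101 and 195. The counts of the ventricular light chains Myl2 and Myl3 were even, at 667, 697 and 797. Of the atrial and ventricular counts together, the atrial genes were 48.1% (exact 95% binomial interval 45.3% to 50.9%) in replicate 1. They were 20.9% (18.2% to 23.7%) in replicate 2 and 27.9% (25.3% to 30.7%) in replicate 3, intervals that cover counting error only. In the untreated libraries the share was 45.9% (33.1% to 59.2%) of few counts and 52.8% (48.0% to 57.7%). Myl3 had only 4 and 0 counts there, which raises these shares, and Nppa gave 153 counts in untreated replicate 2. The shares do not measure atrial tissue. The 8 members with transcripts of 4 kilobases or more other than Atp2a2, among them Myh6, Ttn and Mybpc3, went the other way, with 635, 1341 and 1022 counts. This grouping was made after the values were seen and was not tested.

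Genes of skeletal muscle overlapped between the groups in their summed level, as did the other cardiomyocyte genes. Their median log2 fold change was 1.29. Mylpf, Cacna1s, Tnnt3 and Myl1, without an untreated count, had fitted values of 6.59 to 7.53 that depend on the prior count. The other tested genes of this list were at -3.09 to 1.74. The median over both kinds can therefore not be set against the 1.31 of the members. Of 23 such genes 17 were in the table, and they summed to 24.4 and 19.7 CPM untreated and 17.9 to 24.8 CPM with curcumol, with overlap, and 10 of the 17 were at 0 in both untreated libraries. Their most abundant members were Tnni2, a fast troponin, at 10.3 ± 3.66 and 6.19 ± 2.47 CPM, and Ryr1, the skeletal ryanodine receptor, at 4.08 ± 0.0375 and 4.03 ± 1.01 CPM. Tnni2 was the largest single part of each untreated sum, at 12.9 and 7.73 CPM. The overlap of the sum thus says little about the other skeletal muscle genes. Of the 10 tested none passed in edgeR in either direction. At an unadjusted p under 0.05 3 were higher (against 18.1% of all tested genes) and none lower (against 6.51%). The 3 were Mylpf, Cacna1s and Tnnt3, which were tested only through their curcumol counts. Acta1, skeletal alpha-actin, had 2.75 and 0 CPM untreated and 1.27, 3.36 and 4.02 CPM with curcumol, as patchy without curcumol as the cardiac members.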
